A study of Homo sapiens with 8 samples.

Results

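Heat shock protein, DNAJ and chaperonin genes were followed in DU145 prostate cancer cells given FGF19, TNFα or both. They were the genes whose single platform symbol was HSPD1, HSPE1, HSPH1, TCP1, SERPINH1, HSF1 or HSF2, began with HSP90, HSPA, HSPB or DNAJ, or was a CCT subunit. Pseudogenes, HSPBP1, HSPBAP1 and the CCT8-like genes were left out, which set aside 16 symbols. The rule gave 78 genes of the 18417 with a single symbol, on 82 of 33297 probesets, and each gene was represented by its brightest probeset. They were 27 DNAJC, 12 DNAJB and 4 DNAJA genes, and 13 genes of the HSP70 and HSP110 family. A further 9 encode TRiC subunits, with CCT6A and CCT6B counted as 2 genes. The others were 6 small heat shock proteins, 3 HSP90 genes, the 2 mitochondrial chaperonin genes, the collagen chaperone SERPINH1 and HSF1. No probeset carried the symbol HSF2 alone, and it was not analysed here. Of the 78 genes, 62 lay above the median of all probesets in mean log2 signal. The 6 below the 20th percentile were DNAJB7, DNAJC5B, DNAJC5G, HSPB3, HSPB7 and HSPB9, whose differences are close to the floor of the arrays.

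Molecular chaperones bind proteins that are not folded and help them to reach or keep their shape. HSP70 and HSP90 proteins do so in cycles of ATP use, DNAJ proteins (also called HSP40) bring substrates to HSP70 and start its ATP cycle through their J domain, and small heat shock proteins hold unfolded proteins without using ATP. The chaperonins are rings that enclose the protein being folded: TRiC, built from TCP1 and the CCT subunits, in the cytosol, and HSPD1 with its lid HSPE1 in mitochondria. Many, but not all, of these genes are driven by the transcription factor HSF1 when proteins unfold.

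The cells were DU145, a human prostate cancer line, kept in medium without serum from the day before treatment in every group. Mock cells were untreated. FGF19 cells were given 50 ng/ml of FGF19, a ligand of the receptor FGFR4, plus 100 µg/ml of heparin for 100 min. TNFα cells were given 50 ng/ml of the inflammatory cytokine TNFα for 90 min, and FGF19 + TNFα cells the FGF19 and heparin for 100 min with TNFα present for the last 90 min. These are the doses in the sample labels, and the study's methods state less heparin and less TNFα. Heparin is named only for the groups with FGF19, so that the effects of FGF19 and of heparin cannot be told apart. Each group had 2 arrays, called biological replicates in the labels, and nothing says how the cultures were kept apart.

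Signal is the linear intensity that the authors summarised with PLIER, and its median ranged from 99.5 to 106.6 over the 8 arrays. In log2 signal over all probesets, the correlation was 0.967 to 0.98 within groups and 0.933 to 0.959 between an array with FGF19 and one without. The epithelial genes KRT8, KRT18, KRT19, EPCAM and CDH1 were bright, and the androgen-responsive prostate genes KLK3 and KLK2 lay at percentiles 28.9 and 36.9. The fibroblast genes DCN and LUM were near the floor, while COL1A1, COL1A2 and COL3A1 lay at percentiles 51.6, 35.5 and 43.3. The leukocyte gene PTPRC was near the floor, while CD3E and CD14 lay at 30.2 and 45.3. The endothelial gene CDH5 lay at percentile 73.7 while PECAM1 and VWF lay at 38.8 and 27.1. In bulk RNA, fewer cells and less RNA per cell cannot be told apart. Differences below are on the log2 scale with their standard error (SE) from limma over all 8 arrays, and "higher" or "lower" without further words means a Benjamini-Hochberg adjusted p under 0.05 over all probesets. Genes were called by single probesets, and levels of different genes are not ranked, since probesets differ in brightness.

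The binding sequence of HSF1, the heat shock element, is a run of alternating GAA and TTC units 2 bases apart. A run of 3 units (GAANNTTCNNGAA or TTCNNGAANNTTC, where N is any base; each is the other's reverse complement, so both strands are covered) was searched for in the 250 bases before the start sites of RefSeq genes on GRCh38.p14. It was found for 7 of the 70 members with a window, and for 0.557% of all genes with one. The 7 were SERPINH1, HSPA6, HSPA8, HSP90AA1, HSP90AB1, HSPD1 and DNAJB6. Runs of 2 units (GAANNTTC or TTCNNGAA), which also lie inside each run of 3, were found for 22 of the 70 members, in 22 of their 92 windows, and in 11.6% of all windows. The endoplasmic reticulum (ER) stress element (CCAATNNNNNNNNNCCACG or, on the other strand, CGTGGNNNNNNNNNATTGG), which holds sites for the unfolded protein response of that organelle, was found for HSPA5 and HSP90B1 and for 0.0916% of all genes. The windows below are shown because they set 2 genes that were lower with FGF19 beside 4 that were not called in any comparison. They are written 5′ to 3′ on the gene's strand, with the heat shock elements in capitals in the first 4 and the ER stress elements in the last pair.
SERPINH1, chr11:75562003-75562252, plus strand, lower with FGF19: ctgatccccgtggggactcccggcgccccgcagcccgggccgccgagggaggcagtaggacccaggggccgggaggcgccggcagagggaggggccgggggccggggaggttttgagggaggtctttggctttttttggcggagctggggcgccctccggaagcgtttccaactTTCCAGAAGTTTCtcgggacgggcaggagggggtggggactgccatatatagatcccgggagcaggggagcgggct
HSPA6, chr1:161524290-161524539, plus strand, lower with FGF19: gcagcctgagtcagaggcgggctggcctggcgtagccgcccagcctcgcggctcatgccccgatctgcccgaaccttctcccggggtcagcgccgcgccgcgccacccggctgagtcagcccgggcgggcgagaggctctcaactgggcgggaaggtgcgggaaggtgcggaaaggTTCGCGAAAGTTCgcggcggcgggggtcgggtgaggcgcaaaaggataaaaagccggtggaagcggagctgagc
HSPA8, chr11:123062137-123062386, minus strand, not called: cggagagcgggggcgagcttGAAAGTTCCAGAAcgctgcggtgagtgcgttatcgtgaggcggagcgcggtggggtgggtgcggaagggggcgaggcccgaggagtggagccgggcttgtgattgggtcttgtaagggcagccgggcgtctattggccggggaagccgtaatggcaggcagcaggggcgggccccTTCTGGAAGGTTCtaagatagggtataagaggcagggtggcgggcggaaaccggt
HSP90AB1, chr6:44247693-44247942, plus strand, not called: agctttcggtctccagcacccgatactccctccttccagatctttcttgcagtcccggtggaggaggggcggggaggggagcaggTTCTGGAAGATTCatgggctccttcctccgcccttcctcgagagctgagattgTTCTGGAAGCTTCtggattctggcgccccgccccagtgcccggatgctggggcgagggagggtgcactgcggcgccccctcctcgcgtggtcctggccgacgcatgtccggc
HSPA5, chr9:125241344-125241593, minus strand, not called: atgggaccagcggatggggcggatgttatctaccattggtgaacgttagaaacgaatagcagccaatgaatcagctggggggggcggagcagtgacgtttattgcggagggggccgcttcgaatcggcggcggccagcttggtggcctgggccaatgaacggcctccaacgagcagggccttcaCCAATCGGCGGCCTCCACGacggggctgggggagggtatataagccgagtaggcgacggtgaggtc
HSP90B1, chr12:103930160-103930409, plus strand, not called: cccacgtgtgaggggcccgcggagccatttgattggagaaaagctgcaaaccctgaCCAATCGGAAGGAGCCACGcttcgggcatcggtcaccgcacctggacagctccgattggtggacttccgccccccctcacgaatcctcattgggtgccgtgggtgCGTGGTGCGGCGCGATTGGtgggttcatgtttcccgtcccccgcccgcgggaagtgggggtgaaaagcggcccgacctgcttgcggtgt
In SERPINH1 the capitals run from 76 to 64 bases before the start, and in HSPA6 from 74 to 62. HSPA8 and HSP90AB1 each hold 2 separate runs. A match says only that these letters stand in the window, and genes with the same element had different values on the arrays.

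Whether FGF19 changed the chaperone genes was asked first in cells without TNFα. Of the 78 genes, 14 were higher and 15 lower with FGF19 than in Mock, 17.9% and 19.2% of them. Among all 33297 probesets, 18.2% were higher and 14.1% lower, so that both shares of the chaperone genes were near the background. That background, used throughout, includes 12083 probesets without a gene symbol, and 62 of the 78 genes were brighter than its median. Shares were not compared at matched brightness. The median log2 difference was 0.01 over the 78 genes and 0.08 over all probesets. All 4 arrays given FGF19, with or without TNFα, lay above all 4 arrays not given it for 23 genes and below them for 24. These were 29.5% and 30.8%, where 25.5% and 18.4% of all probesets did so. Such separations of single genes below are to be read beside these shares. The role groups are taken in turn, with the same genes in FGF19 + TNFα against TNFα alone. There, 15 of the 78 genes were higher and 11 lower, 19.2% and 14.1%, against 19.4% and 12.9% of all probesets. The counts depended on single arrays: the 15 lower genes became 3, 5 and 8 without Mock replicate 1, Mock replicate 2 and FGF19 replicate 1, and 4 when only Mock and FGF19 were fitted. With TNFα present, the 15 higher became 6, 7 and 8 without FGF19 + TNFα replicate 2, TNFα replicate 1 and FGF19 + TNFα replicate 1, and the 11 lower became 2 to 7 without any 1 array of the Mock, TNFα or FGF19 + TNFα groups and 7 after quantile normalization. Called genes beyond those fixed by the naming rule were chosen after their values were seen.

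**Figure D1:**
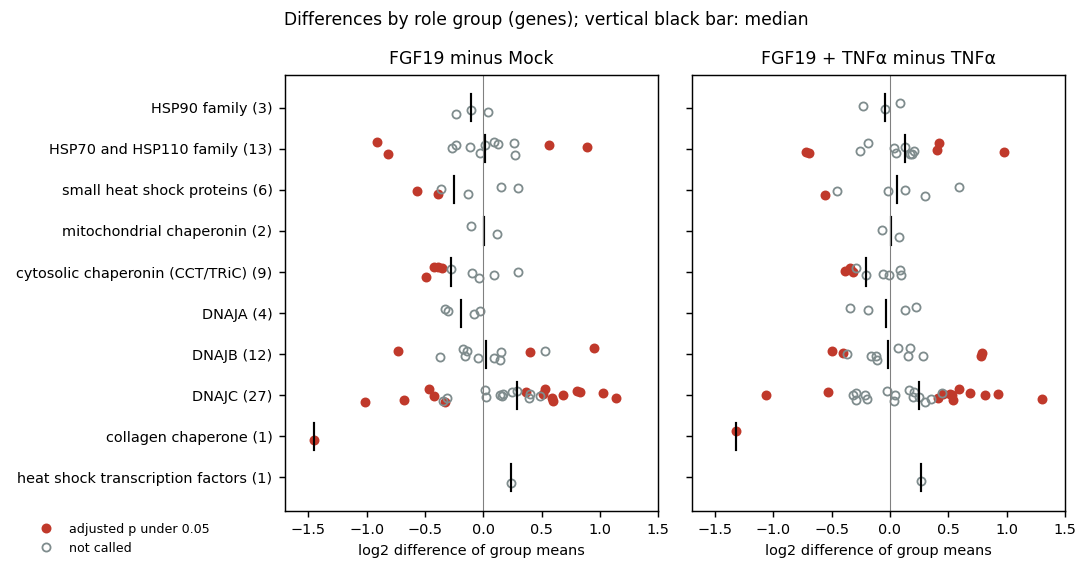
Log2 differences of the 78 genes by role group (rows, with the number of genes) for FGF19 minus Mock (left) and FGF19 + TNFα minus TNFα (right). Each point is 1 gene, filled where its adjusted p was under 0.05, and the black bar is the group's median. The called TRiC subunits lie left of 0 in both panels, the DNAJC genes on both sides with more called to the right, and no HSP90, DNAJA, HSF or mitochondrial chaperonin gene was called.

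SERPINH1, which encodes the collagen chaperone HSP47 of the ER, had the largest log2 difference of the 78 genes in both comparisons. Its signal was 711 and 704 in Mock, 600 and 631 with TNFα, 232 and 289 with FGF19, and 262 and 230 with FGF19 + TNFα. Every array given FGF19 was thus below every array not given it. The log2 difference was -1.45 (SE 0.13, adjusted p = 0.00275) for FGF19 against Mock and -1.32 (SE 0.13, adjusted p = 0.00348) for FGF19 + TNFα against TNFα, or 2.73-fold and 2.50-fold lower. The call held without each array in turn, with a highest adjusted p of 0.024 and 0.0303. The study itself picked SERPINH1 on these arrays, so its call is not independent evidence.

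In the HSP70 and HSP110 family, 2 of 13 genes were higher and 2 lower with FGF19. With FGF19 + TNFα against TNFα, 3 were higher and 2 lower. The shares of all probesets were 18.2% and 14.1% in the first comparison and 19.4% and 12.9% in the second. HSPA6, a strictly heat-inducible HSP70, had a signal of 400 on both Mock arrays and 401 and 335 with TNFα. With FGF19 it was 171 and 263, and with FGF19 + TNFα 220 and 235, so that the arrays with and without FGF19 did not overlap. Its log2 differences were -0.91 (SE 0.21, adjusted p = 0.0188) and -0.69 (SE 0.21, adjusted p = 0.0472). The first adjusted p reached 0.0841 without Mock replicate 2 and 0.0832 without Mock replicate 1. In the second comparison it reached 0.185 without TNFα replicate 1, and only 2 of the 8 arrays could be left out with the call kept.

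HSPA2, an HSP70 abundant in testis, had a signal of 269 and 267 in Mock and 253 on both TNFα arrays. It was 129 and 180 with FGF19 and 153 and 154 with FGF19 + TNFα. The groups with and without FGF19 did not overlap, and the log2 differences were -0.82 (SE 0.16, adjusted p = 0.0107) and -0.72 (SE 0.16, adjusted p = 0.0176). The first had an adjusted p of 0.0575 without Mock replicate 1 and 0.0567 without Mock replicate 2, and the second at most 0.0771, without FGF19 + TNFα replicate 2. HSPA4L moved the other way. It belongs to the HSP110 branch, whose proteins release ADP from HSP70. Its signal was 440 and 382 in Mock, 422 and 403 with TNFα, 756 and 763 with FGF19, and 782 and 846 with FGF19 + TNFα. The log2 differences were 0.89 (SE 0.10, adjusted p = 0.00305) and 0.98 (SE 0.10, adjusted p = 0.00348), 1.85-fold and 1.97-fold higher, and both calls held without each array.

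HSPA12A, a distant relative of HSP70, was higher in both comparisons, by 0.56 (adjusted p = 0.00674) and 0.41 (adjusted p = 0.0205). The first call held without each array, and the second reached an adjusted p of 0.0971 without TNFα replicate 2. HSPA1L, an HSP70 gene expressed mainly in testis, was called with TNFα present, at 0.42 (adjusted p = 0.0487), but not against Mock, at 0.13 (adjusted p = 0.489), and lost the call whichever array was left out, up to an adjusted p of 0.206 without TNFα replicate 1. Its 3 probesets carry identical values and are 1 measurement. The constitutive members were not called. HSPA8, the cytosolic HSC70, had a signal of 5902 to 5960 in Mock and 5925 to 6031 with FGF19, with a log2 difference of 0.01 (SE 0.09, adjusted p = 0.937). HSPA9, the mitochondrial HSP70, differed by -0.23 (adjusted p = 0.0701) and -0.19 (adjusted p = 0.116), with the 4 FGF19 arrays, 3092 to 3299, below the other 4, 3655 to 3785. HSPH1, the heat-inducible HSP110, differed by 0.27 (adjusted p = 0.0506) and 0.17 (adjusted p = 0.162).

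**Figure D2:**
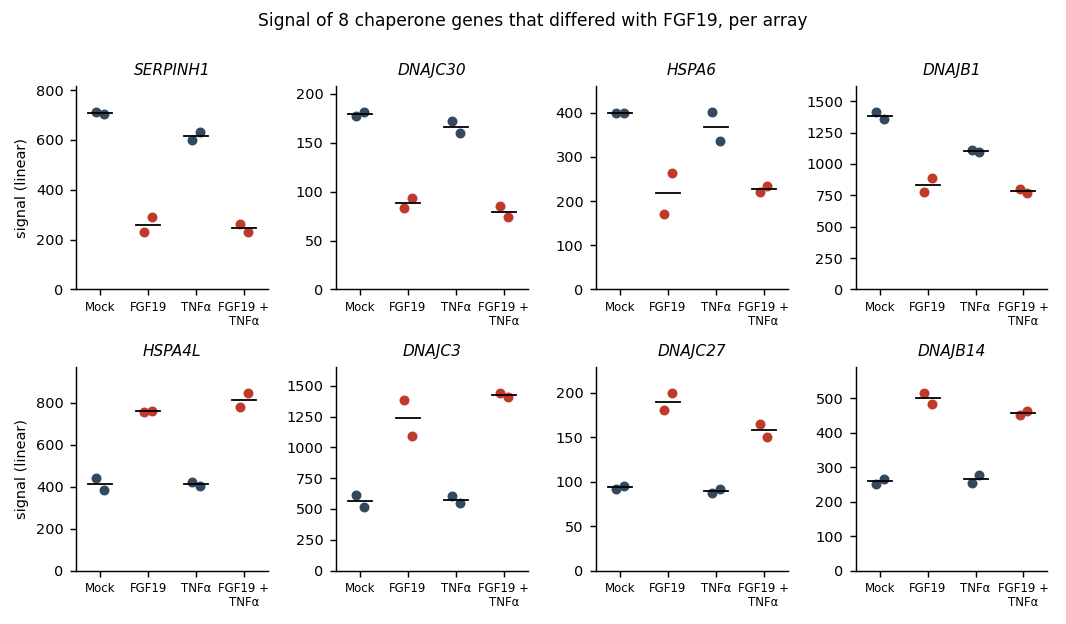
Linear signal (vertical axis, from 0) on each of the 8 arrays for 8 genes, by group on the horizontal axis. Points are arrays, red with FGF19 and dark blue without, and bars are means of 2. In all 8 panels the 4 FGF19 arrays are separated from the other 4, with SERPINH1, DNAJC30, HSPA6 and DNAJB1 lower and HSPA4L, DNAJC3, DNAJC27 and DNAJB14 higher with FGF19.

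The inducible HSP70 genes themselves, HSPA1A and HSPA1B, fall outside the rule because their 5 probesets carry both symbols. The genes are nearly identical and cannot be told apart here, and 2 of the probesets carry identical values and are 1 measurement. Another is close to this pair, at 1439 and 1269 in Mock against 1420 and 1244. The remaining 2 are close to each other, at 1878 and 1749 in Mock against 1849 and 1711. The 5 probesets are thus not 5 independent measurements. The 2 genes are given because they are the best known targets of HSF1, and were chosen after their values were seen. The signal of the brightest of these probesets was 1878 and 1749 in Mock and 2168 and 2116 with TNFα. It was 676 and 1021 with FGF19 and 1078 and 1027 with FGF19 + TNFα, without overlap. All 5 probesets were lower with FGF19, with log2 differences of -1.30 to -1.13 against Mock (adjusted p of 0.00449 to 0.00712) and of -1.20 to -1.03 with TNFα present (adjusted p of 0.00617 to 0.0104). Against Mock all 5 calls held without each array. With TNFα present, 2 of the 5 lost it, the higher adjusted p being 0.059 without FGF19 + TNFα replicate 2. A probeset that carries HSPA6 together with its pseudogene HSPA7 differed by -0.37 (adjusted p = 0.464) and 0.07 (adjusted p = 0.894), at a signal of 68.2 to 133.

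The DNAJ proteins are the largest set. None of the 4 DNAJA genes, which encode the general partners of HSP70, was called. DNAJA1 had a signal of 858 and 920 in Mock and 707 and 732 with FGF19, a log2 difference of -0.30 (SE 0.10, adjusted p = 0.0596), and of -0.19 (adjusted p = 0.186) with TNFα present. DNAJA3, the mitochondrial member, differed by -0.33 (adjusted p = 0.109) and -0.34 (adjusted p = 0.0988), and DNAJA2 by -0.03 (adjusted p = 0.849) and 0.22 (adjusted p = 0.103).

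Of the 12 DNAJB genes, 2 were higher and 1 lower with FGF19, and 2 were higher and 2 lower with FGF19 + TNFα against TNFα. Among all probesets 18.2% were higher and 14.1% lower in the first comparison, and 19.4% and 12.9% in the second. DNAJB1, the heat-inducible HSP40 that works with HSP70 in the cytosol, had a signal of 1412 and 1355 in Mock and 774 and 891 with FGF19. With TNFα it was 1111 and 1092, and with both 798 and 768. The 4 groups thus separated into Mock, then TNFα, then both groups with FGF19, which overlapped. The log2 difference was -0.74 (SE 0.10, adjusted p = 0.00387) for FGF19 against Mock, a call that held without each array. It was -0.49 (SE 0.10, adjusted p = 0.0132) with TNFα present, and there the adjusted p reached 0.0726 without FGF19 + TNFα replicate 2. DNAJB14, a J protein of the ER membrane, rose. Its signal was 251 and 266 in Mock, 255 and 276 with TNFα, 514 and 484 with FGF19, and 451 and 462 with both. The differences of 0.95 (SE 0.09, adjusted p = 0.00275) and 0.78 (SE 0.09, adjusted p = 0.00362) held without each array. A probeset shared by DNAJB14 and the locus LOC646358 was also higher, by 0.84 (adjusted p = 0.00768) and 0.93 (adjusted p = 0.00648).

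The other called DNAJB genes depended on single arrays. DNAJB4, a heat-inducible relative of DNAJB1, was higher against Mock by 0.40 (adjusted p = 0.0221, and 0.119 without Mock replicate 1), at a signal of 2726 and 2593 with FGF19 and 1932 and 2104 in Mock. With TNFα present it differed by 0.29 (adjusted p = 0.0626). DNAJB9, a partner of the ER chaperone HSPA5, was called lower with TNFα present, by -0.40 (adjusted p = 0.0229, and 0.12 without TNFα replicate 1). Against Mock it differed by -0.17 (adjusted p = 0.215), and its 4 FGF19 arrays lay below the other 4. DNAJB7 was higher there by 0.79 (adjusted p = 0.0312, and 0.127 without FGF19 + TNFα replicate 1), with all 8 signals between 13.6 and 30.3, near the floor. DNAJB6, which suppresses aggregation of other proteins, was not called at -0.14 (adjusted p = 0.22) and -0.11 (adjusted p = 0.316).

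The DNAJC genes share only the J domain and work in many compartments. Of 27, 10 were higher and 5 lower with FGF19, and 10 were higher and 2 lower with FGF19 + TNFα against TNFα. For all probesets the shares were 18.2% higher and 14.1% lower in the first comparison and 19.4% and 12.9% in the second. The median log2 differences of the 27 genes were 0.29 and 0.25, where the medians of all probesets were 0.08 and 0.10. Without 1 array at a time, 7 to 10 were higher and 1 to 5 lower in the first comparison, and 4 to 10 higher and 1 to 3 lower in the second. The counts were lowest without either Mock array or FGF19 replicate 1 (7 higher) in the first, and without FGF19 + TNFα replicate 2 or TNFα replicate 1 (4 higher) in the second.

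DNAJC3, also known as P58IPK, is an ER co-chaperone that also restrains the kinases of the translation factor eIF2α. It had the largest rise of the 78 genes. Its signal was 611 and 512 in Mock, 602 and 551 with TNFα, 1384 and 1094 with FGF19, and 1438 and 1405 with both, without overlap. The log2 differences were 1.14 (SE 0.15, adjusted p = 0.00367) and 1.30 (SE 0.15, adjusted p = 0.00357), or 2.20-fold and 2.47-fold higher. DNAJC27, which joins a J domain to a Rab-like GTPase, rose from 91.4 and 95.4 in Mock to 180 and 199 with FGF19, and from 87.3 and 92.2 with TNFα to 165 and 151 with both. Its differences were 1.02 (SE 0.10, adjusted p = 0.00276) and 0.81 (SE 0.10, adjusted p = 0.00375). Both genes kept both calls without each array.

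DNAJC30, a mitochondrial J protein, fell. Its signal was 178 and 181 in Mock, 172 and 160 with TNFα, 83.7 and 93.5 with FGF19, and 85.4 and 73.6 with both. The differences were -1.02 (SE 0.11, adjusted p = 0.00287) and -1.07 (SE 0.11, adjusted p = 0.00348), 2.03-fold and 2.10-fold lower, and the calls held without each array. Besides DNAJC3 and DNAJC27, the DNAJC genes higher in both comparisons were DNAJC28 (0.83 and 0.93), DNAJC1 (0.80 and 0.54), DNAJC13 (0.68 and 0.59), DNAJC16 (0.60 and 0.51), DNAJC24 (0.59 and 0.68), DNAJC10 (0.51 and 0.41) and DNAJC21 (0.36 and 0.45). DNAJC1 and DNAJC10 are proteins of the ER, where DNAJC10 reduces disulfide bonds, DNAJC13 acts on endosomes, DNAJC24 in the synthesis of diphthamide and DNAJC21 in ribosome assembly. Without single arrays, DNAJC1, DNAJC10, DNAJC13 and DNAJC16 kept the call against Mock, and DNAJC28 kept the call with TNFα present. The highest adjusted p of the others was 0.157, for DNAJC21 against Mock without Mock replicate 1. DNAJC22 was higher against Mock by 0.53 (adjusted p = 0.0358, and 0.17 without Mock replicate 1). DNAJC8, a spliceosome protein, was higher with TNFα present by 0.54 (adjusted p = 0.0392, and 0.162 without FGF19 + TNFα replicate 1).

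Of the other DNAJC genes that fell, DNAJC14, which acts in ER export of receptors, was lower in both comparisons, by -0.68 (adjusted p = 0.0151) and -0.53 (adjusted p = 0.0343). Its adjusted p reached 0.0829 without Mock replicate 2 in the first and 0.142 without TNFα replicate 2 in the second. DNAJC4, DNAJC19 and the histone chaperone DNAJC9 were called lower against Mock, by -0.46, -0.43 and -0.33, and each lost the call without a single array, up to adjusted p of 0.119, 0.178 and 0.152. With TNFα present their differences were -0.29 (adjusted p = 0.0935), -0.29 (adjusted p = 0.127) and -0.19 (adjusted p = 0.137). For all 3 genes the 4 FGF19 arrays lay below the other 4, as for 18.4% of all probesets. DNAJC19, part of the motor that imports proteins into mitochondria, has a second, dimmer probeset, which differed by 0.05 (adjusted p = 0.794) and 0.17 (adjusted p = 0.384). The fall of DNAJC19 thus rests on 1 of 2 probesets. The probeset numbers of DNAJC9 and of the brighter DNAJC19 probeset lie among those of members on other chromosomes. Which locus these 2 probesets read was not tested.

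**Figure D3:**
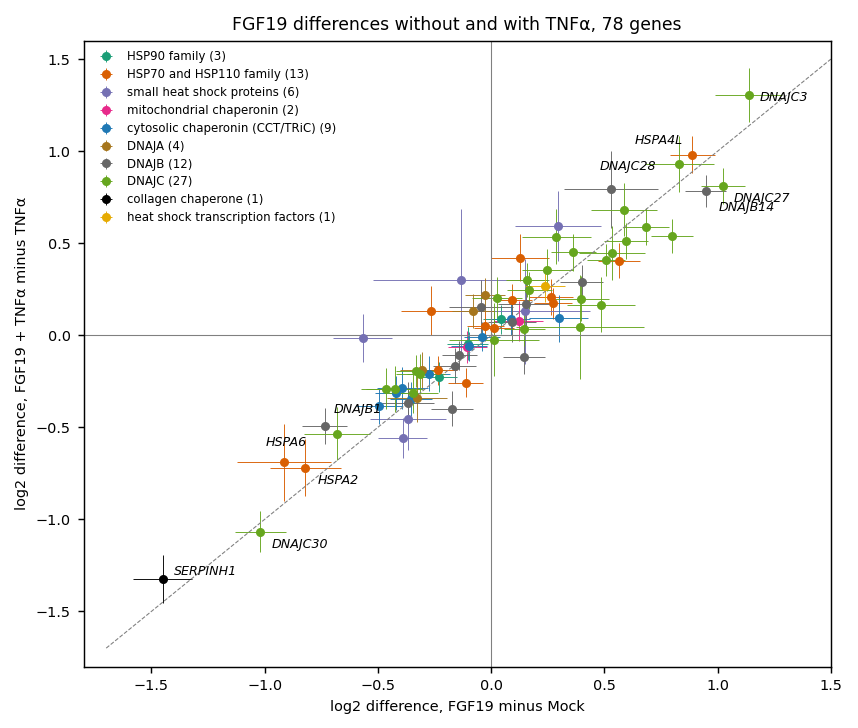
Log2 difference of each of the 78 genes for FGF19 minus Mock (horizontal) against FGF19 + TNFα minus TNFα (vertical), coloured by role group, with bars of 1 SE. The dashed line marks equal differences; 70 of the 78 genes had the same sign in both comparisons, SERPINH1 and DNAJC30 lie farthest to the lower left and DNAJC3 farthest to the upper right.

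TRiC folds actin, tubulin and other proteins of the cytosol. Of its 9 genes, none was higher and 4 were lower with FGF19 against Mock. With TNFα present 3 were lower, and the 2 medians were -0.28 and -0.21. Among all probesets 14.1% and 12.9% were lower, with medians of 0.08 and 0.10. CCT6B, counted beside CCT6A, lay at percentile 44.3 and was not called, at 0.30 (adjusted p = 0.133) and 0.09 (adjusted p = 0.626). CCT7 had a signal of 3415 and 3496 in Mock, 3347 and 3322 with TNFα, 2258 and 2657 with FGF19, and 2560 and 2550 with both. CCT5 had 3196 and 3404 in Mock, 3223 and 3098 with TNFα, 2367 and 2559 with FGF19, and 2621 and 2467 with both. For both subunits, and for CCT2, CCT3 and CCT8, the 4 FGF19 arrays lay below all others, as for 18.4% of all probesets. CCT7 differed by -0.50 (adjusted p = 0.013) and -0.38 (adjusted p = 0.0313), CCT5 by -0.42 (adjusted p = 0.0155) and -0.31 (adjusted p = 0.0417), and CCT2 by -0.35 (adjusted p = 0.0288) and -0.35 (adjusted p = 0.0315). CCT3 passed against Mock, at -0.39 (adjusted p = 0.0411), and with TNFα present differed by -0.29 (adjusted p = 0.1).

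The differences of the TRiC subunits were small and their calls depended on single arrays and on the fit. Quantile normalization ended all 3 calls with TNFα present and those of CCT2 and CCT3 against Mock, and fitting only the groups compared ended all 4 calls against Mock. Without either Mock array no subunit was lower against Mock, and 5 were lower without FGF19 replicate 2. With TNFα present none was lower without any 1 of the 6 arrays of the Mock, TNFα and FGF19 + TNFα groups, and 4 were lower without either FGF19 array. Subunits of the same ring did not all differ. TCP1, the first subunit, had a signal of 3842 and 3814 in Mock and 4118 and 4015 with FGF19, a log2 difference of 0.09 (SE 0.08, adjusted p = 0.474), and 0.09 (adjusted p = 0.463) with TNFα present. CCT4 differed by -0.04 (SE 0.08, adjusted p = 0.735) and -0.01 (adjusted p = 0.948). Whether processed pseudogenes share probes with the TRiC subunits, the HSP90 genes, DNAJC9 or DNAJC19 was not tested.

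No HSP90 gene was called. HSP90AB1, the constitutive cytosolic form, had a signal of 5519 and 5766 in Mock, 5546 and 5738 with TNFα, 4692 and 4924 with FGF19, and 4924 and 4720 with both. The arrays with and without FGF19 did not overlap, but the log2 differences of -0.23 (SE 0.08, adjusted p = 0.079) and -0.23 (SE 0.08, adjusted p = 0.0813) did not pass. HSP90AA1, the inducible form, differed by -0.10 (SE 0.09, adjusted p = 0.425) and -0.04 (adjusted p = 0.732). The ER form HSP90B1 differed by 0.04 (SE 0.08, adjusted p = 0.721) and 0.09 (adjusted p = 0.438). HSPA5, or BiP, the HSP70 of the ER, had 3985 and 4139 in Mock, 4200 and 4073 with TNFα, 3817 and 3702 with FGF19, and 3482 and 3442 with both. Its 4 FGF19 arrays lay below the other 4, and its differences were -0.11 (adjusted p = 0.327) and -0.26, where the adjusted p of 0.05 was just on the uncalled side.

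**Figure D4:**
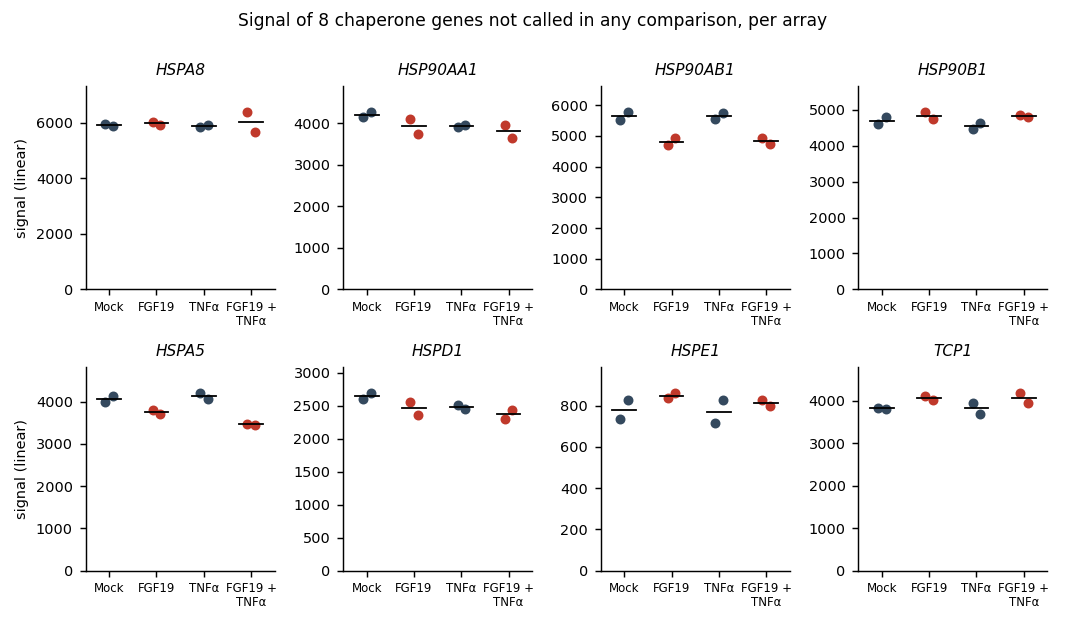
Linear signal (vertical axis, from 0) on each of the 8 arrays for 8 bright chaperone genes that were not called in any comparison, by group. Points are arrays, red with FGF19 and dark blue without, and bars are means of 2. The arrays with and without FGF19 overlap, except in HSP90AB1 and HSPA5, where all 4 FGF19 arrays are lower.

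The mitochondrial chaperonin genes HSPD1 and HSPE1, which encode the ring and its lid, were not called either. Their RefSeq start sites on chromosome 2 lie head to head, the nearest HSPD1 start 105 bases before that of HSPE1. HSPD1 differed by -0.11 (SE 0.09, adjusted p = 0.398) and -0.07 (adjusted p = 0.599), and HSPE1 by 0.12 (SE 0.11, adjusted p = 0.439) and 0.08 (adjusted p = 0.619). Among the 6 small heat shock proteins, none was higher, 2 were lower against Mock and 1 with TNFα present. The lower shares of all probesets were 14.1% and 12.9%, and the higher ones 18.2% and 19.4%. HSPB8, a partner of BAG3 in the removal of misfolded proteins, had a signal of 105 and 99.1 in Mock and 74.5 and 81.7 with FGF19. With TNFα it was 116 and 130, and with both 79.3 and 88.1, so that all FGF19 arrays were lower. Its differences were -0.39 (adjusted p = 0.0363) and -0.56 (adjusted p = 0.0121), with adjusted p of up to 0.161 without Mock replicate 1 and 0.0701 without TNFα replicate 2. HSPB3, a muscle protein, was lower against Mock by -0.57 (adjusted p = 0.02, and 0.108 without Mock replicate 1), with all signals from 18.8 to 32.8, near the floor, and differed by -0.02 (adjusted p = 0.934) with TNFα present. HSPB1, or HSP27, had a signal of 1749 and 1277 in Mock, 1603 and 1750 with TNFα, 1079 and 1245 with FGF19, and 1184 and 1258 with both. All FGF19 arrays were lower, but its differences of -0.37 (SE 0.17, adjusted p = 0.146) and -0.46 (SE 0.17, adjusted p = 0.0818) did not pass.

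HSF1, the regulator of the heat shock response, had a signal of 264 and 243 in Mock, 274 and 258 with TNFα, 294 and 304 with FGF19, and 317 and 322 with both. All FGF19 arrays were higher, but the differences of 0.24 (SE 0.09, adjusted p = 0.0853) and 0.27 (SE 0.09, adjusted p = 0.061) did not pass. A list of 21 symbols of genes known to be driven by HSF1 in heat held HSPB5 and CRYAB, which name 1 gene. Of the symbols, 18 had their own probeset here, 17 of them among the 78. HSPA1A and HSPA1B have only shared probesets and are not in the counts that follow. Those shared probesets were lower in both comparisons. Of the 18, 2 were higher and 3 lower against Mock, with a median of -0.07, and 2 were higher and 3 lower with TNFα present, with a median of -0.03, where 18.2% of all probesets were higher and 14.1% lower in the first comparison and 19.4% and 12.9% in the second. Without FGF19 + TNFα replicate 2 or either TNFα array 1 was lower in the second, and without FGF19 + TNFα replicate 1, 2 were. The number higher fell to 1 without FGF19 replicate 1 or either Mock array in the first, and without any 1 array in the second. The lower ones were SERPINH1, HSPA6 and DNAJB1 in both comparisons, and the higher ones HSPA4L in both, DNAJB4 against Mock and HSPA1L with TNFα present. HSPA8, HSPH1, both cytosolic HSP90 genes, HSPD1 and HSPE1 were not called.

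The 2 comparisons of FGF19 share no array in their differences, so that their values can be set side by side. Both come from the same fit of all 8 arrays and use the same SE for each gene. Their calls are therefore not independent. Of the genes higher in 1 or the other, 12 were higher in both, 85.7% of the 14 and 80.0% of the 15. Of the lower ones, 10 were lower in both, 66.7% of the 15 and 90.9% of the 11. For all probesets these shares were 76.8% and 71.8% for higher and 77.2% and 84.0% for lower. Across the 78 genes the log2 differences correlated at r = 0.94, and across all probesets, many of them dim, at 0.64. The latter include the 240 zeros raised to 0.01, while no value of the 78 genes was 0. The 2 correlations are therefore of unlike sets. Genes are not independent replicates, and these are descriptions. The interaction, which tests whether the difference made by FGF19 depended on TNFα, was called by limma for none of the 78 genes and for 0% of all probesets. At an unadjusted p under 0.05 it named 1 gene, HSPB3 (adjusted p = 0.96), where 5.15% of all probesets had such a p, and without moderation none was called. The moderated F test over the 4 groups, at the adjusted p of 0.015 that the study used, called 15 of the 78 genes, or 19.2%, against 20.9% of all probesets.

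TNFα by itself did not give a called difference in any of the 78 genes. Against Mock, limma found none higher and none lower, where 0.967% of all probesets were higher and 0.0961% lower. With FGF19 + TNFα against FGF19 there were also none, where 0.279% and 0.003% of all probesets passed. At an unadjusted p under 0.05 there were 7 genes in the first comparison and 2 in the second, where 12.5% and 6.01% of all probesets had such a p, and fits without moderation called none. The smallest p for TNFα against Mock was that of DNAJB1, at -0.33 (adjusted p = 0.261), with both TNFα arrays below both Mock arrays. For FGF19 + TNFα against FGF19 it was that of DNAJC27, at -0.27 (adjusted p = 0.74). The log2 differences over the 78 genes ran from -0.33 to 0.41 and from -0.40 to 0.27.

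In a list of partners of the chaperones, more genes were lower than higher with FGF19. The list was chosen with earlier results of these data known, so that its counts describe only the genes on it. Of its 32 co-chaperones and prefoldins, 28 had a probeset. Of these, 3 were higher and 12 lower with FGF19 against Mock, with a median of -0.31 beside 0.08 for all probesets, and 4 were higher and 11 lower with TNFα present, with a median of -0.16 beside 0.10. Of all probesets 18.2% were higher and 14.1% lower in the first comparison and 19.4% and 12.9% in the second. The first median ranged from -0.40 without FGF19 replicate 2 to -0.17 without FGF19 replicate 1. Without 1 array at a time, 7 to 14 were lower in the first comparison, fewest without Mock replicate 2, and 4 to 11 in the second, fewest without FGF19 + TNFα replicate 2 (4) and either TNFα array (5). UNC45A, which loads myosin onto HSP90, had a signal of 445 and 454 in Mock and 136 and 190 with FGF19. With TNFα it was 398 and 435, and with both 152 and 155. Its differences were -1.49 (SE 0.16, adjusted p = 0.00287) and -1.44 (SE 0.16, adjusted p = 0.00357). CDC37, which brings kinases to HSP90, had 1160 and 1286 in Mock, 1121 and 1072 with TNFα, 479 and 560 with FGF19, and 539 and 551 with both. It differed by -1.24 (SE 0.11, adjusted p = 0.00275) and -1.01 (SE 0.11, adjusted p = 0.00352). The arrays with and without FGF19 did not overlap for either gene.

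STUB1, or CHIP, the ubiquitin ligase that acts on clients of HSP70 and HSP90, differed by -1.06 (SE 0.12, adjusted p = 0.00306) and -1.01 (SE 0.12, adjusted p = 0.00375). HSPBP1, which releases nucleotide from HSP70, differed by -0.74 (SE 0.09, adjusted p = 0.00324) and -0.63 (SE 0.09, adjusted p = 0.00502). UNC45A, CDC37, STUB1 and HSPBP1 kept both calls without each array. Probesets of CDC37 and STUB1 were also in the study's own list of changed probesets from these arrays, so their calls are not independent evidence. Among the higher genes, chosen after their values were seen, were PFDN1, a subunit of the prefoldin that hands substrates to TRiC (0.50, adjusted p = 0.015, and 0.40, adjusted p = 0.0328), and CHORDC1, an HSP90 partner (0.31, adjusted p = 0.0354, and 0.43, adjusted p = 0.0128). Both lost these calls without single arrays, with adjusted p of up to 0.147 and 0.145. Among prefoldin subunits PFDN2 and VBP1 were lower and PFDN1 and PFDN4 higher in both comparisons.

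**Figure D5:**
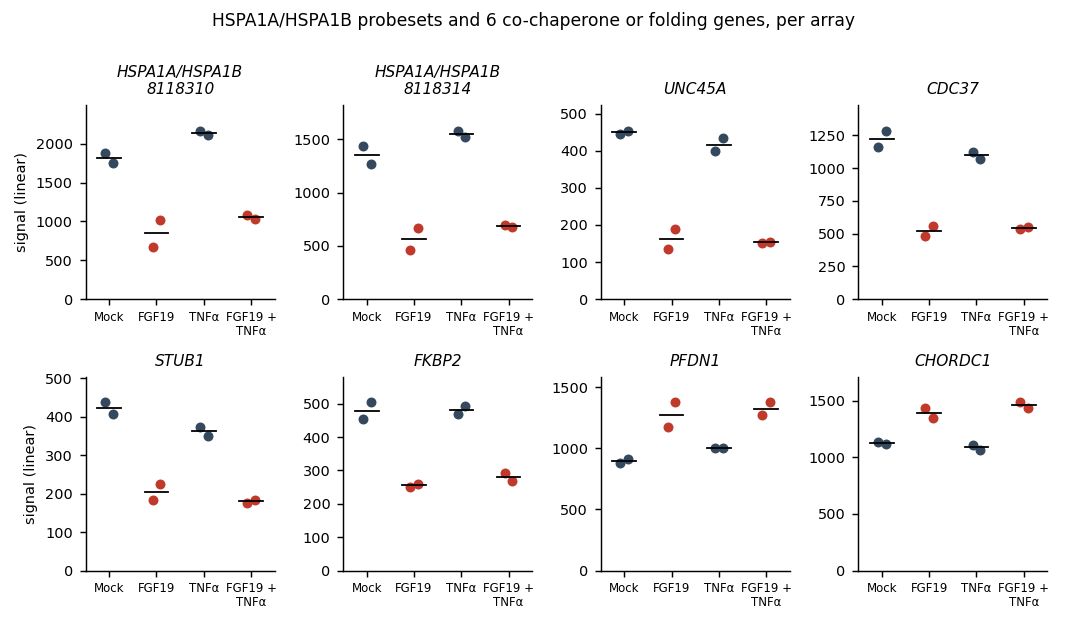
Linear signal (vertical axis, from 0) on each of the 8 arrays for 2 of the 5 probesets shared by HSPA1A and HSPA1B (with their probeset numbers) and for UNC45A, CDC37, STUB1, FKBP2, PFDN1 and CHORDC1, by group. Points are arrays, red with FGF19 and dark blue without, and bars are means of 2. The first 6 panels are lower and PFDN1 and CHORDC1 higher on all 4 FGF19 arrays.

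From a list of 18 folding genes of the ER, also chosen with earlier results of these data known, 17 had a probeset. With FGF19 1 was higher and 9 lower against Mock, with a median of -0.38, and 1 was higher and 8 lower with TNFα present, with a median of -0.28. Of all probesets 18.2% were higher and 14.1% lower in the first comparison and 19.4% and 12.9% in the second, with medians of 0.08 and 0.10. Without 1 array at a time, 4 to 9 were lower in the first comparison, fewest without Mock replicate 1 (4) and Mock replicate 2 (5), and 3 to 8 in the second, fewest without either TNFα array or FGF19 + TNFα replicate 1 (3). FKBP2, a prolyl isomerase, had a signal of 453 and 505 in Mock, 469 and 493 with TNFα, 251 and 261 with FGF19, and 293 and 268 with both, without overlap. It differed by -0.90 (SE 0.10, adjusted p = 0.00287) and -0.78 (SE 0.10, adjusted p = 0.00404). ERP29 differed by -0.64 and -0.59 and SDF2L1, which works with HSPA5, by -0.74 and -0.70, and FKBP2, ERP29 and SDF2L1 kept both calls without each array. ERP44, which retains proteins in the early secretory pathway, was the higher gene in both comparisons, by 0.30 and 0.29, and lost the first call whichever array was left out, up to an adjusted p of 0.13 without Mock replicate 2. The ER chaperones HSPA5 and HSP90B1 were not called, and the J proteins of the ER went different ways. DNAJC3, DNAJC1, DNAJC10 and DNAJB14 were higher in both comparisons, DNAJB9 was lower with TNFα present, and DNAJB11 differed by -0.16 (adjusted p = 0.249) and -0.17 (adjusted p = 0.227).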

How the data were processed

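Total RNA of DU145 cells was measured on 8 Affymetrix Human Gene ST arrays, 2 per group. The authors deposited linear signal intensity for 33297 probesets, made per the labels with Affymetrix Expression Console and PLIER (version and normalization not given in the sources used here). Each of the 8 columns entered. Before log2, the 240 zeros were raised to 0.01, the lowest positive value on every array, and no further scaling was applied. Groups were taken from the sample labels. A linear model of the 4 groups was fitted to all 8 arrays and all probesets with lmFit and eBayes of limma 3.58.1 (R 4.3.3), with Benjamini-Hochberg adjustment over all probesets and two-sided tests. The fit had 4 residual and 2.19 prior degrees of freedom. Where cultures were not separate, p-values measure only the spread between these arrays. The number of arrays limits the precision. The steps were also run on simulated data with 200 changed probesets. Far more were called with FGF19 here, so that the run does not measure error rates in these data.

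Members, role groups and lists were chosen with earlier results of these data known. Named by rule were HSF1 and SERPINH1, members with an adjusted p under 0.05 and a 2-fold difference, the 2 members of each role group with the smallest p in each FGF19 comparison and its brightest in Mock, heat-inducible genes, and up to 4 genes of each other list. Other genes named were chosen after their values were seen. Symbols came from the platform annotation, and all 78 are current in RefSeq. Promoter windows came from RefSeq on GRCh38.p14, cut to the 250 bases before the start; 8 members had none. Alternatives were no moderation, cyclic loess or quantile normalization, adding 16 before log2, dropping the dimmest 20 percent, fitting the compared groups alone, averaging a gene's probesets, a block for replicate number, and each array left out once. Figures were drawn with matplotlib 3.10.9.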

Additional observations from a re-analysis of the deposited data

How the results depend on the processing

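No called difference of a named gene changed direction under the alternatives run. The 15 genes lower with FGF19 against Mock became 4 when only the groups compared were fitted, and 3 to 16 when 1 array was left out, fewest without Mock replicate 1 (3), Mock replicate 2 (5) and FGF19 replicate 1 (8). The 14 higher ones became 10 to 14 without 1 array. For FGF19 + TNFα against TNFα, the 15 higher genes became 6 to 14 without 1 array, with 6, 7 and 8 without FGF19 + TNFα replicate 2, TNFα replicate 1 and FGF19 + TNFα replicate 1. The 11 lower ones became 7 with quantile normalization and 2 to 15 without 1 array, with 2 without TNFα replicate 2, 3 without TNFα replicate 1 or FGF19 + TNFα replicate 2, 4 without FGF19 + TNFα replicate 1 and 7 without either Mock array. The 15 genes of the F test became 7 without moderation and 4 to 14 without 1 array. Of the 29 calls against Mock 12 held without each array, as did 7 of the 26 with TNFα present, and these also held in the other alternatives. The counts for TNFα against Mock, FGF19 + TNFα against FGF19 and the interaction were 0 in each alternative in which they were run. With the replicate number as a replicate block, 14 genes were higher and 16 lower against Mock, 15 and 9 with TNFα present, and 11 passed the F test. The labels state no pairing. The deviations of same-numbered arrays correlated at -0.02 to 0.195, highest for FGF19 with FGF19 + TNFα. With 2 arrays a group, these values cannot decide whether the numbers pair the arrays. The median of all probesets was shifted by 0.104 for FGF19 + TNFα against TNFα in the deposited values and by 0.01 after quantile normalization. Leaving out an array leaves a group with 1, which is then assumed to vary like the others. Arrays give no counts, and the 6 genes near the floor are limited by signal over background.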
